A study of Mus musculus with 6 samples.

Results

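The genes examined here encode the nuclear subunits of the mitochondrial respiratory chain, complexes I to IV, and of ATP synthase, complex V. They were chosen by symbol: Nduf subunits of the A, B, C, S and V series for complex I, Sdha to Sdhd for complex II, the Uqcr genes for complex III, Cox4 to Cox8 for complex IV and the Atp5 genes for complex V. Only probes with exactly 1 gene symbol were used, and each gene was represented by its brightest probe over the 6 arrays. This gave 80 genes of the 22180 measured, with 33 in complex I, 4 in complex II, 8 in complex III, 17 in complex IV and 18 in complex V. Of these, Uqcrh-ps1 and Atp5c1-ps carry pseudogene symbols. Subunits whose probes carried several symbols, such as Ndufs6, Cox6c and Uqcr10, were not analysed here.

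The samples were LSK cells from mouse bone marrow, a sorted fraction without mature lineage markers that carries Sca-1 and Kit, and in which stem cells of the blood and early progenitors are found. All 6 samples came from C57Bl6 mice with the tamoxifen-inducible Tg(Cdh5-Cre/ERT2) transgene and the Rosa 26 YFP reporter, given tamoxifen on days 1, 2 and 3 after birth. Cells were taken at postnatal day 27, that is 26 days after the first induction, and the LSK cells were separated into 3 YFP-positive and 3 YFP-negative samples. Both populations therefore shared alleles, treatment and age, and differed in the reporter. Cre is driven by the Cdh5 promoter, and Cdh5 encodes VE-cadherin, which joins endothelial cells, so YFP marks cells with active Cre and the descendants of such cells. Whether replicates were separate animals is not in the labels, and p-values therefore measure only how far these samples spread, in part perhaps for technical reasons. Values are the log2 expression values the authors deposited, 1 array per sample, and differences are YFP-positive minus YFP-negative.

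In the inner mitochondrial membrane, complexes I and II pass electrons from NADH and succinate to ubiquinone, complex III hands them to cytochrome c, and complex IV reduces oxygen. Complexes I, III and IV pump protons, and ATP synthase uses the gradient to make ATP. Most subunits are encoded in the nucleus, while a small core of complexes I, III, IV and V is encoded by the mitochondrial genome. Quiescent blood stem cells are known for relying less on respiration than the progenitors they give rise to.

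The populations differed first in markers that bear on what the gate held. Cdh5 measured 11.62, 11.84 and 11.29 on the YFP-positive arrays and 5.40, 4.55 and 3.71 on the YFP-negative arrays. Kit, the gate's receptor, measured 6.98, 6.56 and 7.06 against 7.57, 7.96 and 7.74, and Ptprc, the pan-leukocyte surface protein Cd45, 6.52, 6.95 and 9.52 against 9.33, 9.23 and 9.37. Of 29 endothelial markers, 24 rose (median 3.51), and their summed linear level ran from 17280 to 26050 in YFP-positive and from 2531 to 3580 in YFP-negative samples. Of 23 leukocyte markers, 3 fell (median -1.42), with summed levels of 2800 to 10280 against 9199 to 9676. The leukocyte markers' median relative to the YFP-negative mean was -1.99 and -2.22 in YFP-positive replicates 1 and 2, but 0.14 in YFP-positive replicate 3. Neutrophil genes varied within both populations, with summed levels of 12170 to 29080 against 5786 to 24550 and 0 of 18 past the test. Their median difference was 0.85, and 15 of the 18 lay above 0. Relative to the YFP-negative mean, the list's median was 0.17, 0.81 and 2.26 on YFP-positive replicates 1, 2 and 3. On YFP-negative replicates 1, 2 and 3 it was -1.12, -0.49 and 1.81. Of 14 macrophage markers 3 rose, namely Vcam1, Mrc1 and Mertk, which endothelial cells can also express, and the other 11 did not pass. Over the 6 arrays, 7 of the 14 had a mean level under 4, 4 a mean of 4 to under 5 and 3 a higher mean. Among these, Cd68 measured 5.99, 4.62 and 7.37 on the YFP-positive and 5.12, 6.07 and 7.27 on the YFP-negative arrays. The summed level of the list was 2372 to 2905 against 218.2 to 350.0. Most of the YFP-positive sum came from Vcam1 and Mrc1, with YFP-positive means of 10.12 and 10.25. The list's median difference was -0.07, with 8 of the 14 below 0. Erythroid (13 genes) and mast cell and megakaryocyte lists (10 genes) had 0 genes past the test. Of 25 replication and mitosis genes, 8 fell (32%, beside 1.96% of all genes, median -1.46). All 25 lay below 0, and 20 separated with the YFP-positive arrays lower (80%, beside 11.9% of all genes). This list's median relative to the YFP-negative mean was -1.7, -1.84 and -0.71 on YFP-positive replicates 1, 2 and 3. The share that any of these cell types had in the results below was not tested, and in a bulk sample fewer cells of a type and less RNA per cell cannot be told apart.

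Respiratory chain genes measured lower in the YFP-positive samples as a group, mostly by small amounts. Of the 80 genes, 69 had a difference below 0 and 11 above it (86.2% below 0, against 51.3% of all genes). Their median difference was -0.38, against -0.01 over all genes. Single genes passed limma's test, with adjustment over all 22180 genes at 0.05, in 5 cases: Cox6b2, Atp5c1, Sdhd, Atp5a1 and Ndufv2 fell. All 5 lost their calls with an unmoderated variance, and also when the replicate number was added to the fit as a term. When an array was left out, 0 to 3 of the 80 genes passed, a count that was 0 without YFP-negative replicate 2. The 5 genes are 6.25% of the group, beside 1.96% of all genes that fell, and 0 of the 80 rose, beside 2.88% of all genes. At an unadjusted p under 0.05, 28 lay lower and 1 higher. In 32 genes all 3 YFP-positive arrays lay below all 3 YFP-negative arrays, and in 1 gene above, while 11.9% and 10.8% of all genes separated in those directions.

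Other brightly measured genes also lay lower, with a smaller median difference and a larger share of calls. Among the 2218 genes in the upper 10% by level, the median difference was -0.25, 64.5% lay below 0, 7.89% fell and 29.8% separated with the YFP-positive arrays lower. The corresponding shares of the respiratory chain genes were 86.2%, 6.25% and 40%. Split by level, the 68 respiratory chain genes with a mean of at least 5 had a median difference of -0.42, with 64 of them below 0. The other 12, at means under 5, had a median of 0.04. No detection calls were used, so such low levels cannot be told from background.

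**Figure D1:**
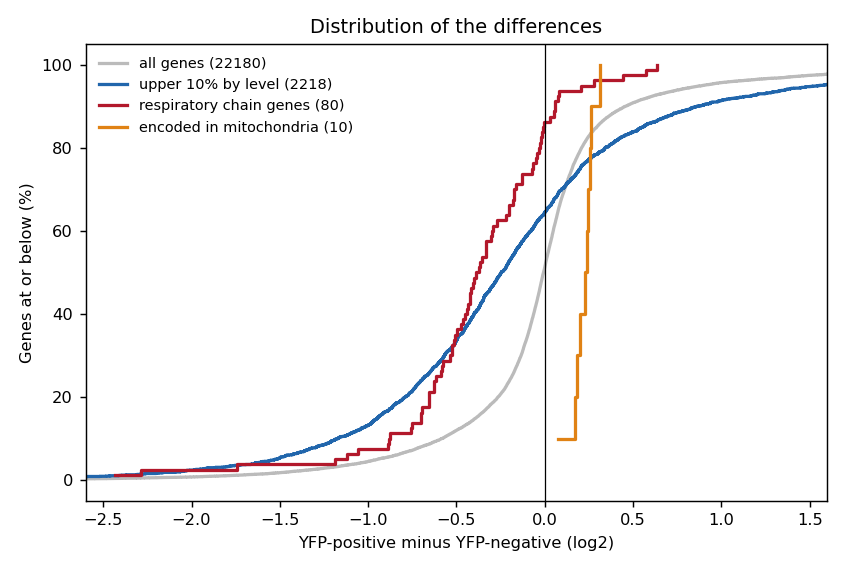
Cumulative distribution of the YFP-positive minus YFP-negative difference (log2, horizontal axis), as the percentage of genes at or below each value, for all 22180 genes (grey), the 2218 brightest (blue), the 80 respiratory chain genes (red) and 10 subunit genes of the mitochondrial genome (orange). The red curve has passed 86.2% by 0, where all genes stand at 51.3%, and the orange curve lies wholly above 0.

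The shift was present on each YFP-positive array. Taken as each gene's deviation from its YFP-negative mean, the median over the 80 genes was -0.39, -0.21 and -0.48 on YFP-positive replicates 1, 2 and 3, and 0.02, 0.07 and -0.04 on the YFP-negative arrays. Replicate 3, on which the median of the leukocyte markers stood at the YFP-negative level, had the lowest median of the 3 for respiratory chain genes. The 3 leukocyte markers that fell, Vav1, Cd48 and Inpp5d, still measured 5.22, 6.37 and 6.15 on it. Their lowest YFP-negative values were 7.44, 8.67 and 7.36. A relation between leukocyte and respiratory chain levels was not tested. The summed linear level of the 80 probes ran from 31800 to 40480 in YFP-positive and from 44570 to 48560 in YFP-negative samples, with no overlap. Sums over all genes did not overlap either, at 1698000 to 1762000 against 1782000 to 1826000. Nor did those over the upper 10% by level, at 1135000 to 1211000 against 1266000 to 1289000.

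**Figure D2:**
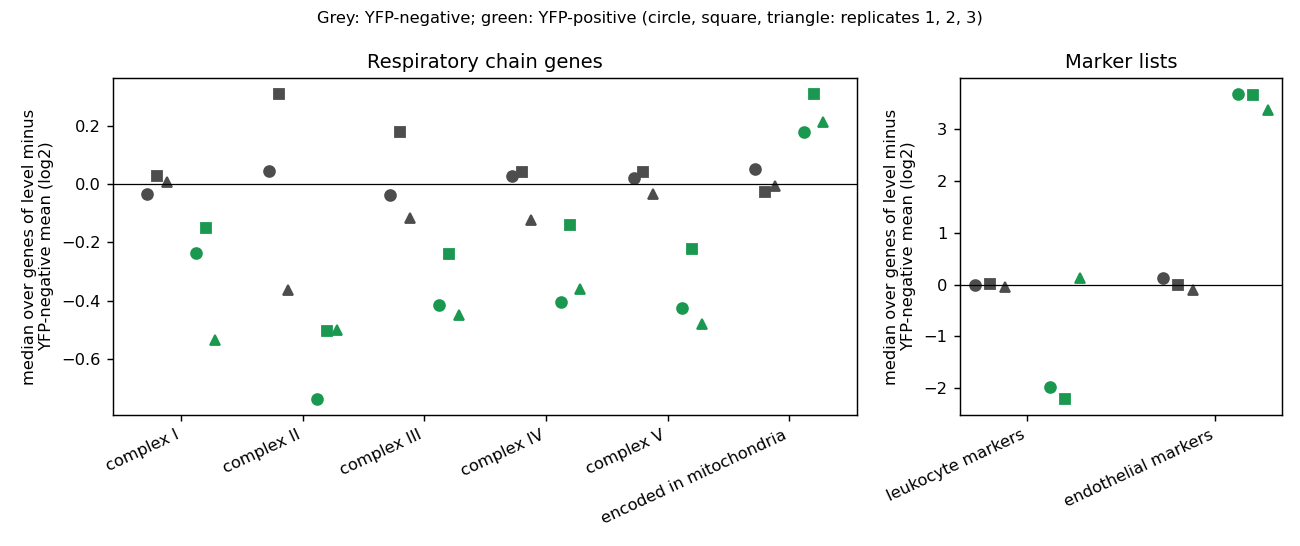
Median over the genes of each group of the level minus that gene's YFP-negative mean (log2), for each array, with YFP-negative in grey, YFP-positive in green, and circle, square and triangle for replicates 1, 2 and 3. The left panel has complexes I to V and the subunits of the mitochondrial genome, and the right panel the leukocyte and endothelial markers, of which only the leukocyte median brings YFP-positive replicate 3 to the YFP-negative level (0.14).

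Promoters of these genes are known for short sites bound by NRF-1, YY1, ETS factors such as GABP, and the oestrogen-related receptors (ERR), which control many nuclear mitochondrial genes. As most of the members lay below 0, their promoter windows were searched. RefSeq promoter windows of build GRCm38.p6, from 250 bases before to 50 after the start, were at hand for 64 of the 80 genes (69 windows). 4 strings were searched on both strands. GCATGCGC, the core of the NRF-1 site, was in 10 of these windows (14.5%) against 3.63% of all 20611 windows. AAGATGGC, the YY1 string, was in 9 (13%) against 3.11%. CCGGAA, the ETS string, was in 27 (39.1%) against 18.5%. TCAAGGTCA, the ERR string, was in only 2 (2.9%) against 0.315%. These shares were not tested. At least 1 string was in 39 of the 69 windows, and 9 held 2 or more. A match describes the letters and does not show that a factor binds. The stretches below show each string in a member whose values are given later, in the gene's own orientation and with the strings in capitals. In Sdhd and Atp5g3 the capitals are the string's reverse complement. In Atp5k the NRF-1 string and its reverse complement overlap, and the capitals cover both.
Sdhb, chr4:140961176-140961265, plus strand, NRF-1: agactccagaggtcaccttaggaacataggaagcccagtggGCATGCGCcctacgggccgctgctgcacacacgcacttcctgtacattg
Atp5k, chr5:108434400-108434489, minus strand, NRF-1: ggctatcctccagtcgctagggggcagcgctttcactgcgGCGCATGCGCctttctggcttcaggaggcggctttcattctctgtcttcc
Atp5j, chr16:84835016-84835105, minus strand, YY1 then ETS: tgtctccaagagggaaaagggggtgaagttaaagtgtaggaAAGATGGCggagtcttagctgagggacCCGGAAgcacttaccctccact
Sdhd, chr9:50603850-50603939, minus strand, ETS: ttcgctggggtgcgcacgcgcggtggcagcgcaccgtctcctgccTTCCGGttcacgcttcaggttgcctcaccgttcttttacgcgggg
Atp5g3, chr2:73911330-73911419, minus strand, ERR: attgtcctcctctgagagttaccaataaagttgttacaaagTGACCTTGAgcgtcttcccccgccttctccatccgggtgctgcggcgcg

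Windows with the strings belonged to genes with differences of various sizes, and a relation between string and difference was not tested. Sdhd fell (-0.88) and holds an ETS and an ERR string. Sdhb lay lower (-0.70) without passing the test and holds NRF-1 and ETS strings. Atp5j, with YY1 and ETS strings, had a difference of 0.06. The other genes with the YY1 string all lay below 0, as did most of the members. They were Atp5j2, Atp5pb, Ndufa3, Ndufa9, Ndufb8, Ndufc1, Ndufs4 and Ndufs7. Of the factors themselves, none passed the test. Nrf1 had a difference of -0.34, Yy1 of -0.60, Gabpa of 0.15 and Esrra, the gene of ERR alpha, of -0.08.

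Complex I, the NADH dehydrogenase, had 1 gene past the test among 33. Ndufv2, an iron-sulfur subunit of the module that takes electrons from NADH, measured 7.06, 7.61 and 7.69 on the YFP-positive arrays and 8.86, 8.48 and 8.38 on the YFP-negative arrays. The groups did not overlap, and Ndufv2 was 2.17-fold lower (-1.12 ± 0.22, SE, limma adjusted p = 0.0454). It lost the call in each of the 6 fits from which an array was omitted (adjusted p = 0.0543 to 0.13). Its partners in the same module differed less: Ndufv1, which binds NADH and the flavin, measured 7.11, 6.79 and 6.66 against 7.43, 7.44 and 6.51, with overlapping groups. Ndufs1, the large iron-sulfur subunit, had a difference of -0.18 (95% interval -0.87 to 0.52), which was 0.12 without YFP-positive replicate 2, and that of Ndufv3, an accessory subunit, was -0.76 without overlap (adjusted p = 0.0984). Whether Ndufv2 differs from its partners in response was not tested.

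Ndufa9, an accessory subunit near the ubiquinone site, had the largest difference of the complex and did not pass. It measured 6.79, 7.65 and 7.23 against 8.31, 8.71 and 8.21, which is -1.19 ± 0.25 (adjusted p = 0.0585). All of its YFP-positive values lay under all of its YFP-negative values. Ndufs4, an accessory subunit of the NADH module whose loss causes Leigh syndrome in humans, showed the same separation at -0.63 (8.39, 8.37 and 8.46 against 8.66, 9.27 and 9.16, adjusted p = 0.132). The iron-sulfur subunits on the path to ubiquinone, Ndufs7 and Ndufs8, had differences of -0.59 and -0.04, and Ndufs3 of -0.38, each with overlapping arrays, and that of Ndufs8 ran from -0.36 to 0.24 over the fits without 1 array. Across the 6 core subunits of the matrix arm measured here, all 6 lay below 0 with a median of -0.32, and 1 separated. The signs of Ndufs1 and Ndufs8 among them thus rest on single arrays.

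Over the 33 genes of complex I, 29 lay below 0, 11 separated in that direction (33.3%, beside 11.9% of all genes) and the median was -0.30. Ndufa1, a small membrane subunit, was the brightest probe of the complex and measured 10.11, 10.23 and 10.32 against 10.39, 10.53 and 11.06 (-0.44, adjusted p = 0.329). Among the membrane arm's B series, Ndufb8, Ndufb9 and Ndufb10 separated without passing (-0.52, -0.42 and -0.30). The widest spread was in Ndufb11 and Ndufa11, accessory subunits of the membrane arm. Ndufb11 measured 6.92, 8.60 and 5.48 against 6.72, 6.31 and 6.06, so that its difference of 0.63 rested on YFP-positive replicate 2 and was -0.17 without it. Ndufa11 measured 7.42, 9.41 and 5.99 against 7.39, 8.25 and 7.83, again with replicate 2 highest, and its difference of -0.22 was 0.59 without YFP-positive replicate 3. Ndufa4l2, an isoform of Ndufa4 known from hypoxic cells, lay between 3.12 and 3.40 on all arrays, a level that cannot be told from background.

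Complex II, succinate dehydrogenase, belongs both to the chain and to the citric acid cycle and is wholly encoded in the nucleus. Sdhd, a membrane anchor that helps form the ubiquinone site, measured 5.52, 5.12 and 5.11 against 6.06, 6.26 and 6.05. The groups were apart by more than the spread within either, and Sdhd was 1.84-fold lower (-0.88 ± 0.15, limma adjusted p = 0.0326). The call was kept in 1 of the 6 fits without 1 array, that without YFP-positive replicate 1 (adjusted p = 0.0307 to 0.114). Sdhb, the iron-sulfur subunit, measured 6.42, 6.82 and 6.74 against 7.29, 7.65 and 7.14, also apart, with a difference of -0.70 that did not pass (adjusted p = 0.105). Sdha, the flavoprotein that oxidises succinate, measured 7.61, 8.01 and 8.10 against 8.64, 8.83 and 7.98 and overlapped through YFP-negative replicate 3. Sdhc, the other anchor, had a difference of 0.08 with the lowest value, 5.72, on that same array, and of -0.31 without it. The 4 genes had a median of -0.64.

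In complex III, the cytochrome bc1 complex, all 8 genes lay below 0 (median -0.41) and 0 passed limma's test in any fit run, though 3 had an unadjusted p under 0.05. The core proteins Uqcrc1 and Uqcrc2, which hold the complex together on the matrix side, had differences of -0.61 and -0.54. Uqcrc1 measured 6.57, 7.37 and 7.39 against 7.63, 7.98 and 7.56, and Uqcrc2 7.84, 8.23 and 7.52 against 8.23, 8.66 and 8.30. Both had every YFP-positive value under every YFP-negative value. In Uqcrc2 this was so only barely, with a highest YFP-positive value of 8.2253 and a lowest YFP-negative value of 8.2256. Uqcrfs1, the Rieske iron-sulfur protein that carries electrons to cytochrome c1, measured 5.50, 5.85 and 5.91 against 6.29, 6.13 and 6.21 (-0.46 ± 0.14, adjusted p = 0.161). Uqcrh, the acidic hinge protein, was likewise apart, at -0.47. The small subunits Uqcrb, Uqcrq and Uqcr11 overlapped, with differences of -0.35, -0.03 and -0.0027, the last 2 of which turned above 0 in some fits without 1 array and under quantile normalization. The pseudogene Uqcrh-ps1 was between 2.70 and 3.19 throughout. Cyc1, the gene of cytochrome c1, lies outside the symbol rule and had a difference of -0.64 with separate groups (7.29, 7.54 and 7.58 against at least 7.97 in YFP-negative, adjusted p = 0.0813).

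Complex IV, cytochrome c oxidase, held the 3 largest differences of all 80 genes, in Cox6a2, Cox6b2 and Cox7c, of which the first pair are isoforms known from particular tissues. Cox6b2, known as the testis isoform of subunit VIb, measured 5.15, 4.92 and 5.91 on the YFP-positive arrays and 7.64, 8.07 and 7.12 on the YFP-negative arrays. Cox6b2 was 4.87-fold lower (-2.28 ± 0.34, limma adjusted p = 0.0199), with no overlap. It passed in 2 of the 6 fits without 1 array, those without YFP-positive or YFP-negative replicate 3 (adjusted p = 0.0131 to 0.0803). Cox6b1, the widely expressed isoform, measured 9.10, 9.33 and 8.98 against 9.20, 9.41 and 9.41 and overlapped, with a difference of -0.21 (95% interval -0.53 to 0.12). The intervals of the 2 isoforms did not overlap, but the difference between them was not tested.

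Cox6a2, known as the heart and muscle isoform of subunit VIa, measured 4.99, 4.86 and 5.21 against 7.32, 8.71 and 6.33. The YFP-positive values were close together and the YFP-negative values spread over more than 2 log2 units. The difference of -2.43 ± 0.57 did not pass (adjusted p = 0.079), except without YFP-negative replicate 3 (0.0396). Its widely expressed partner Cox6a1 measured 10.85, 11.08 and 10.91 against 10.89, 11.29 and 10.69, a difference of -0.01 (95% interval -0.44 to 0.42) that was 0.09 after quantile normalization. The promoter stretches of Cox6b2 and Cox6b1, the last 120 bases before the start on the minus strand of chromosome 7, are shown so that the isoforms can be compared. Of the 4 strings, the Cox6b1 stretch holds the ETS string, as its reverse complement in capitals, and the Cox6b2 stretch holds none.
Cox6b2, chr7:4753095-4753214: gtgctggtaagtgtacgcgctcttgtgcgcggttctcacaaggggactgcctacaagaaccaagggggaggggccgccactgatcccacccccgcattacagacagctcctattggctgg
Cox6b1, chr7:30626115-30626234: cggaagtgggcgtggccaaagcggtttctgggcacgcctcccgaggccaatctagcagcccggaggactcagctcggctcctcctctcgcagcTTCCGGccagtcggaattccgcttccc

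In the other tissue isoforms the groups overlapped. Cox4i2, known from lung and from hypoxic cells, measured 4.72, 4.38 and 4.18 against 6.12, 4.62 and 4.62, so that its difference of -0.70 leaned on YFP-negative replicate 1 and was -0.20 without it. Cox7a1, a heart and muscle isoform, measured 3.78, 5.71 and 3.69 against 3.93, 3.74 and 3.80, with YFP-positive replicate 2 alone high, and its difference of 0.57 was -0.09 without that array. Cox7b2, Cox8b and Cox8c stayed between 2.15 and 3.55 on every array, near the lower end of the scale. Over the 8 tissue-restricted isoforms, Ndufa4l2 included, 1 fell, 4 lay below 0 and the median was -0.02. Over 7 widely expressed partners, 0 passed and all 7 lay below 0, with a median of -0.34.

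**Figure D3:**
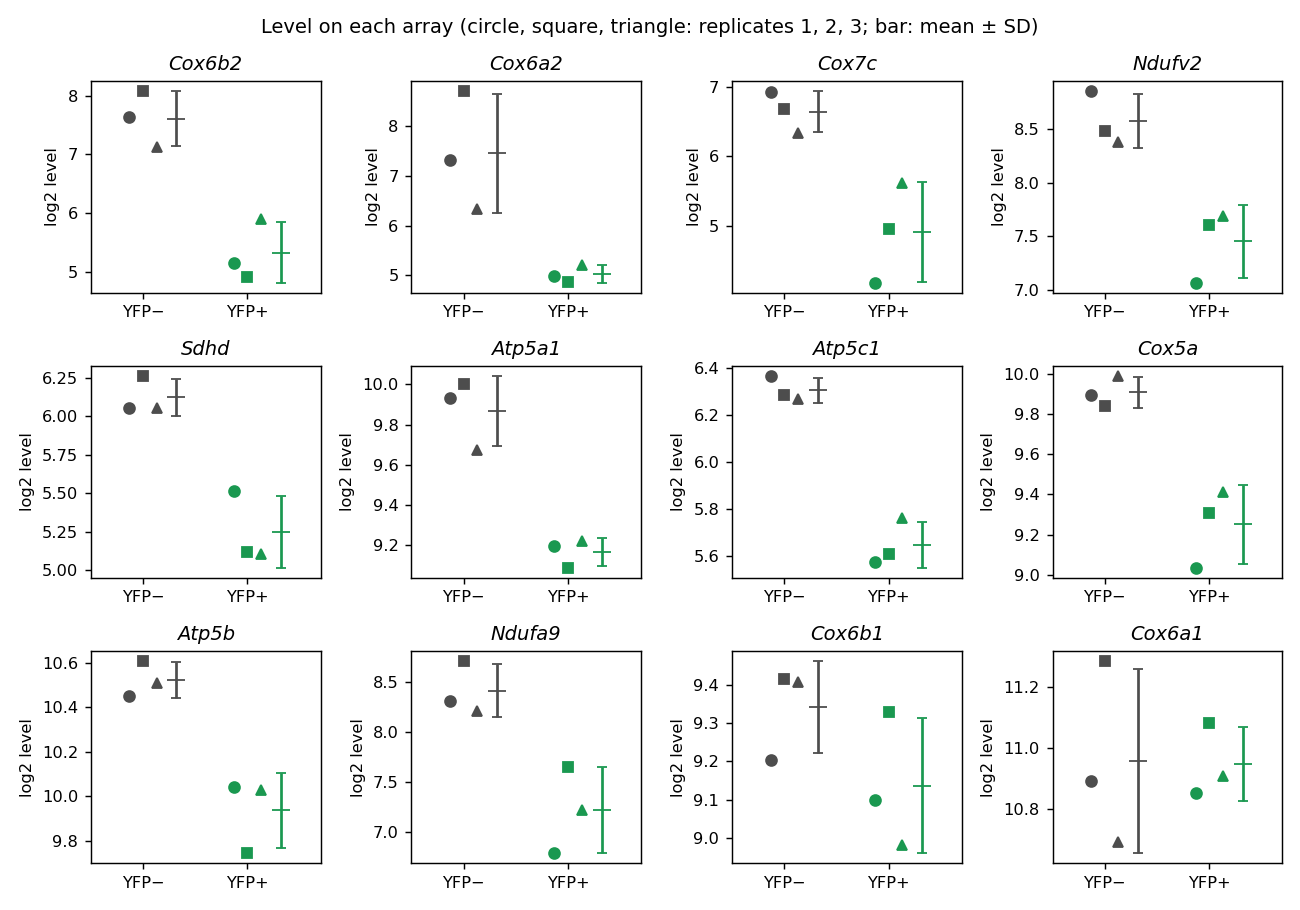
Level on each array (log2, vertical axis, a separate range for each gene) of 12 subunit genes in YFP-negative (grey) and YFP-positive (green) samples, with circle, square and triangle for replicates 1, 2 and 3 and a bar for the mean ± SD. In the first 10 genes, Cox6b2 to Ndufa9, the groups are apart, and in Cox6b1 and Cox6a1 they overlap.

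Among the subunits found in all tissues, Cox5a, which sits on the matrix side, came closest to the threshold. It measured 9.03, 9.31 and 9.41 against 9.89, 9.84 and 9.99, which is -0.66 ± 0.13 (adjusted p = 0.0524). Cox7c, a small membrane subunit, measured 4.17, 4.95 and 5.61 against 6.94, 6.68 and 6.33, a difference of -1.74 ± 0.38 that did not pass (adjusted p = 0.0617). YFP-positive replicate 3 was the highest of its group, and without it the difference was past the threshold (0.0238). Cox4i1, the regulatory subunit IV, was apart as well, with 10.03, 10.29 and 10.14 against 10.68, 10.91 and 10.39 (-0.51, adjusted p = 0.179). Ndufa4, grouped with complex I by its symbol but now known as a subunit of complex IV, measured 9.93, 10.45 and 9.77 against 10.87, 10.89 and 10.66 (-0.75, adjusted p = 0.11). Cox5b, Cox7a2, Cox7b and Cox8a overlapped between groups at -0.45 to -0.31. Over the 17 genes, 14 lay below 0, 5 separated and the median was -0.34. The 5 are 29.4%, beside 11.9% of all genes and 29.8% of genes in the upper 10% by level.

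Complex V, ATP synthase, had both of its calls in the catalytic head. The head is built from the subunits alpha and beta, which make ATP, and from the rotor subunits gamma, delta and epsilon. All 5 genes separated with the YFP-positive arrays lower (median -0.66), as did 11.9% of all genes and 29.8% of genes in the upper 10% by level. The split of the complex into head and other parts was made after the values were seen. Atp5a1, subunit alpha, measured 9.20, 9.09 and 9.22 against 9.93, 10.00 and 9.67, a 1.63-fold fall (-0.70 ± 0.13, limma adjusted p = 0.0365). Atp5c1, subunit gamma, measured 5.57, 5.61 and 5.76 against 6.37, 6.28 and 6.27, a 1.58-fold fall (-0.66 ± 0.11, limma adjusted p = 0.0246). In both genes the gap between groups exceeded the spread within them. Each kept its call in 1 of 6 fits without 1 array, Atp5a1 without YFP-negative replicate 3 (adjusted p = 0.0447 to 0.126) and Atp5c1 without YFP-positive replicate 3 (0.0331 to 0.0974).

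The other head subunits did not pass. Atp5b, subunit beta, measured 10.04, 9.74 and 10.03 against 10.45, 10.61 and 10.51 (-0.58 ± 0.13, adjusted p = 0.061). Atp5d, subunit delta, measured 9.04, 8.28 and 8.97 against 9.44, 9.29 and 9.53, and its unused, dimmer probe had a difference of -0.24 where the used probe had -0.66. Atp5e, subunit epsilon, measured 10.66, 11.29 and 10.41 against 11.68, 11.70 and 11.61 (-0.88, adjusted p = 0.108), and its unused probe had -0.79. Without YFP-positive replicate 2, the nearest of its group to the YFP-negative arrays, Atp5e was past the threshold (0.0252).

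Outside the head 0 genes passed, and no difference between the head and the other subunits was tested. The peripheral stalk, which holds the head still, had a median of -0.24 over 4 genes. Of these, Atp5pb, subunit b, separated at -0.41, while Atp5h measured 8.75, 10.09 and 9.22 against 9.82, 10.08 and 10.05 and overlapped. The unused probe of Atp5h, at a mean level of 3.92, had 0.04 where the used probe had -0.63. Atp5o, the stalk's cap, and Atp5j were at -0.07 and 0.06, and over the fits without 1 array they ran from -0.37 to 0.22 and from -0.01 to 0.10. The c ring, whose turning drives the rotor, is made of 1 protein encoded by the genes Atp5g1, Atp5g2 and Atp5g3, which differ in their targeting sequences. Atp5g1 was the only gene of the 80 to separate upward, at 4.03, 4.05 and 4.18 against 3.67, 3.89 and 3.38 (0.44 ± 0.15, adjusted p = 0.209). Its mean level of 3.87 cannot be told from background. Atp5g2, the brightest of these genes, measured 8.80, 8.82 and 8.59 against 8.96, 9.59 and 8.65 and overlapped (-0.33). Atp5g3 measured 8.56, 8.06 and 8.32 against 8.81, 8.55 and 8.88 and also overlapped (-0.43, adjusted p = 0.268).

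The small membrane subunits of complex V, several of which hold the enzyme's dimers together, all lay below 0, and 4 of 5 separated (median -0.43). Downward separation was seen in 11.9% of all genes and in 29.8% of genes in the upper 10% by level. Atp5l, subunit g, had the brightest probe of the complex, at 11.97, 12.13 and 12.10 against 12.27, 12.26 and 12.22, and its difference of -0.18 was 0.01 after quantile normalization. Atp5k, subunit e, measured 9.66, 10.26 and 10.07 against 10.39, 10.40 and 10.40 (-0.40, adjusted p = 0.312), and Atp5md 11.06, 11.34 and 10.66 against 11.54, 11.47 and 11.60 (-0.52, adjusted p = 0.23). Atp5j2, subunit f, separated at -0.52, but at levels of 3.09 to 3.85. Over the 18 genes of complex V, 15 lay below 0, 10 separated in that direction and the median was -0.43. Atpif1, the inhibitor that stops ATP synthase from running in reverse, is outside the symbol rule and fell, with 10.37, 10.41 and 10.64 against 11.07, 11.35 and 11.14 (-0.71 ± 0.13, limma adjusted p = 0.0399, 0.0409 to 0.12 over the 6 fits without 1 array).

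**Figure D4:**
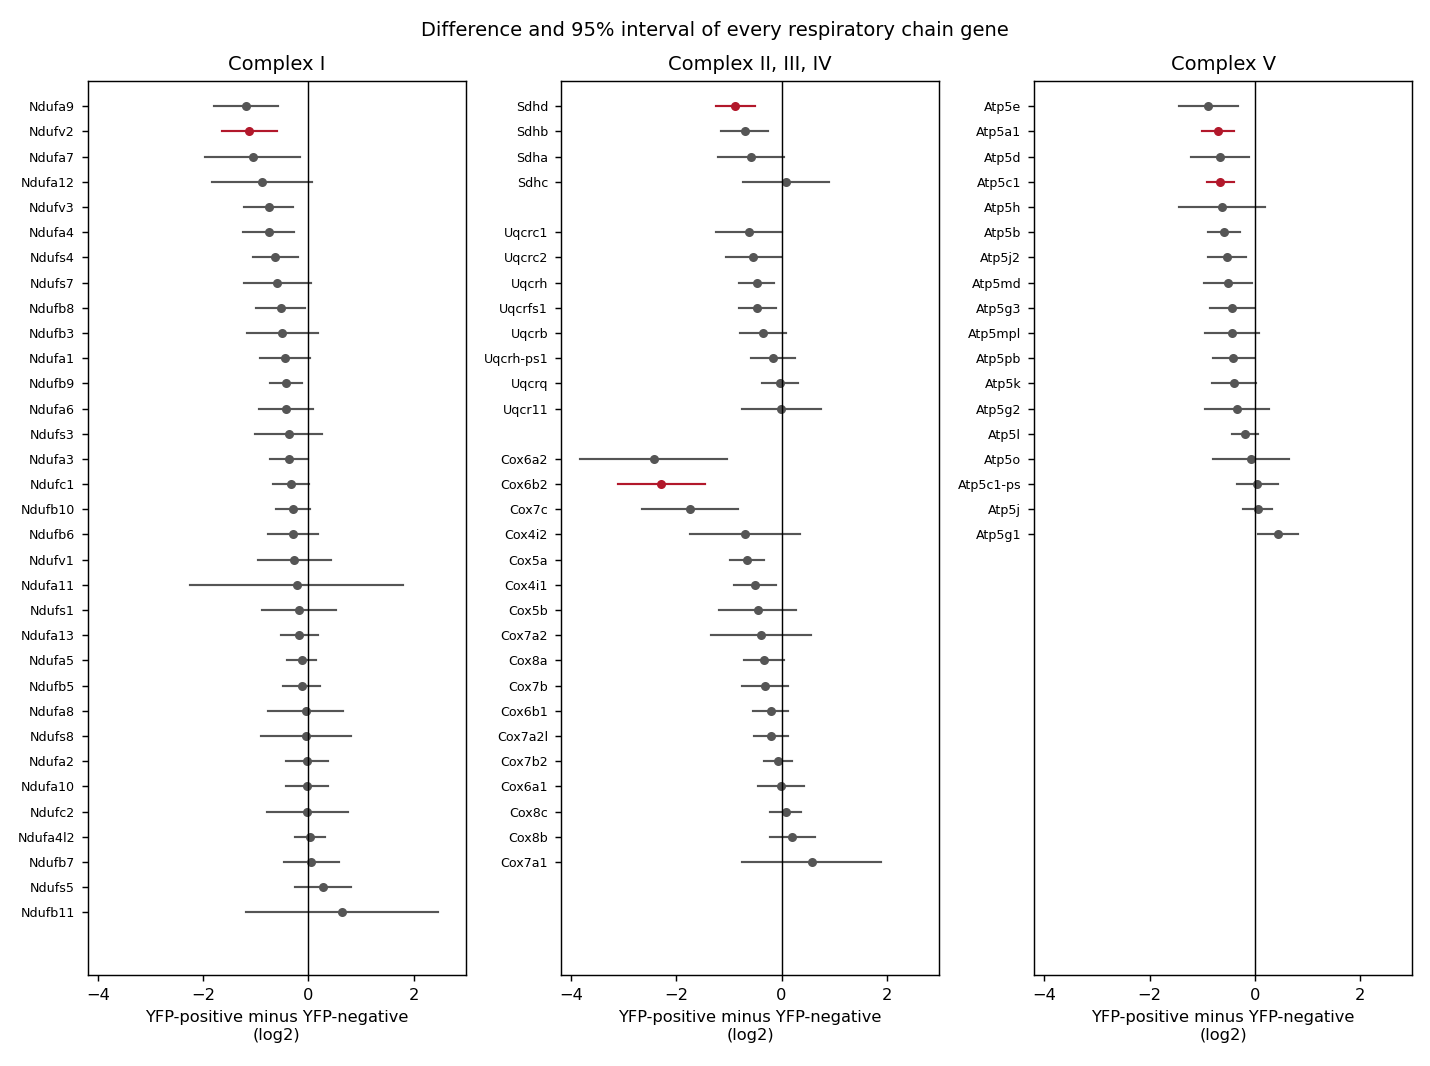
Difference (log2, YFP-positive minus YFP-negative, points) and its 95% interval (lines) for each of the 80 genes by complex, in red where limma's adjusted p was under 0.05. The 5 genes in red are Ndufv2, Sdhd, Cox6b2, Atp5a1 and Atp5c1, and most other points lie to the left of 0 with intervals that cross it or come close.

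The complexes overlapped in size of difference, with medians from -0.64 in complex II to -0.30 in complex I. By array, the median deviation on YFP-positive replicates 1, 2 and 3 was -0.24, -0.15 and -0.54 in complex I and -0.74, -0.51 and -0.50 in complex II. It was -0.41, -0.24 and -0.45 in complex III, -0.41, -0.14 and -0.36 in complex IV, and -0.43, -0.22 and -0.48 in complex V. Replicate 2 was nearest to the YFP-negative level in complexes I, III, IV and V. In complexes I to V, 33.3%, 50%, 50%, 29.4% and 55.6% separated downward, beside 29.8% of genes in the upper 10% by level. The shares that fell were 3.03%, 25% (1 of 4 genes), 0%, 5.88% and 11.1%, beside 7.89%. In complexes I and IV both shares were thus near or below those of other bright genes. No difference between complexes was tested. Of the 80 genes, 52 had a 95% interval wholly within 1 log2 unit of 0, so that for those a difference of 2-fold or more lay outside the interval.

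Subunits encoded by the mitochondrial genome lay on the other side of 0. Those measured were 7 NADH dehydrogenase subunits, cytochrome b and 2 cytochrome oxidase subunits. All 10 lay above 0, with a median of 0.23, and 9 separated with the YFP-positive arrays higher. In that direction 10.8% of all genes separated, and 13.5% of genes in the upper 10% by level. None passed limma's test in any fit run, and 2, ND4 and ND4L, had an unadjusted p under 0.05. ND4, a proton-pumping subunit of complex I, measured 12.73, 12.81 and 12.72 against 12.50, 12.51 and 12.49 (0.26 ± 0.09, adjusted p = 0.236). CYTB, the cytochrome b of complex III, measured 12.48, 12.60 and 12.46 against 12.31, 12.27 and 12.23 (0.24, adjusted p = 0.293). COX1, the catalytic subunit of complex IV, measured 12.51, 12.62 and 12.61 against 12.44, 12.37 and 12.34 (0.20, adjusted p = 0.398), and COX3 overlapped at 0.07. These probes all lay near the upper end of the scale, where saturation was not assessed, and the mitochondrial genome is transcribed as long shared precursors, so they are not independent of each other. The summed linear level of the 10 probes was 51560 to 57480 in YFP-positive and 45670 to 48240 in YFP-negative samples. The difference between nuclear and mitochondrial subunits was not tested.

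Genes that serve the chain without being part of it were examined from lists of general knowledge. Of 48 factors that assemble the complexes, 2 fell and 38 lay below 0, with a median of -0.43. The 2 are 4.17%, beside 1.96% of all genes and 3.77% of genes in the upper 50% by level. Cmc1, which helps build complex IV, measured 7.01, 6.83 and 6.56 against 7.87, 8.13 and 7.91 (-1.17 ± 0.15, limma adjusted p = 0.0141), and Ndufaf2, an assembly factor of complex I, 6.99, 7.42 and 7.04 against 8.17, 8.32 and 8.45 (-1.17 ± 0.16, 0.015). They kept their calls in 4 and 3 of the 6 fits without 1 array. Ndufaf3, another complex I assembly factor, stood at 1.06 and did not pass (adjusted p = 0.0719).

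Of 17 electron carriers and feeders of ubiquinone, 2 fell (11.8%, beside 1.96% of all genes and 3.77% of the upper 50% by level; median -0.26). These were Etfa and Etfb, the paired subunits of the flavoprotein that brings in electrons from fatty acid oxidation. Etfa measured 7.02, 7.25 and 7.12 against 7.68, 7.82 and 7.75 (-0.62 ± 0.11, limma adjusted p = 0.0372), and Etfb 7.20, 7.22 and 6.92 against 8.36, 7.88 and 7.84 (-0.92 ± 0.18, 0.0478). Neither passed in any fit without 1 array. Cycs, cytochrome c itself, measured 9.69, 9.01 and 9.90 against 10.18, 10.38 and 10.37 (-0.78, adjusted p = 0.161).

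Of 17 genes of the citric acid cycle and pyruvate dehydrogenase, 1 fell and 14 lay below 0 (median -0.40). That 1 gene is 5.88%, beside 1.96% of all genes and 7.89% of genes in the upper 10% by level. Suclg2, a subunit of the GTP-forming succinyl-CoA ligase, measured 7.44, 7.64 and 7.50 against 8.46, 9.02 and 8.47 (-1.13 ± 0.18, limma adjusted p = 0.0252), and it kept the call in 1 of the 6 fits without 1 array (0.0412 to 0.0874). Of 22 regulators of mitochondrial gene expression and replication, 0 passed limma's test in any fit run, and at an unadjusted p under 0.05 there was 1 in each direction. Tfam, which packages mitochondrial DNA, measured 3.20, 3.70 and 3.65 against 4.37, 4.45 and 3.80 (-0.69, adjusted p = 0.192). Polg, the mitochondrial DNA polymerase, measured 5.34, 5.12 and 5.41 against 4.87, 4.65 and 4.90 (0.48, adjusted p = 0.123). Ppargc1a, a coactivator of mitochondrial biogenesis, stayed between 2.82 and 3.74 on all arrays.

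Respiratory subunit genes have many processed copies in the genome, and probes could pick up transcripts of more than 1 copy, so single-gene values are uncertain to that extent. Of the 80 genes, 9 had several single-symbol probes. Both probes lay below 0 in all of these except Atp5h, whose probes differed in sign. Sizes did not always match. The unused probe of Atp5g2, at a mean level of 8.06, had -0.0085 where the used probe had -0.33, while the probes of Cox5b had -0.454 and -0.453.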

How the data were processed

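Expression was measured on 1 array for each of 3 YFP-positive and 3 YFP-negative samples, each from 500 pg of RNA, with replicates as the labels number them. The authors deposited log2 values; Partek is named in the submitters' processing notes (version not given), with background correction and normalization not given in these sources. That the scale is log2 was read from the values. Array medians lay between 3.62 and 3.68. The number of arrays limits the precision. Of 41345 probes, 25335 were listed in the annotation, 23521 with 1 symbol. limma 3.58.1 in R 4.3.3 (lmFit, eBayes) was fitted over 22180 genes with population as its sole term; tests were two-sided, and p-values were adjusted after Benjamini-Hochberg across every gene (threshold 0.05). The fit was also run on simulated data in which each gene varied independently, without effects shared by an array. That run therefore does not vouch for the calls in these data. Genes were named if past the threshold, among the smallest p of a complex, its largest rise or its brightest or dimmest probe, in the isoform lists, or of smallest p in a service list. Others are named for their role and were chosen after their values were seen, as was the split at a level of 5 and into subassemblies. The members and lists were chosen with earlier results of these data known. Same-numbered samples deviated together weakly (correlations 0.0985, 0.0806 and 0.167, against -0.111 to 0.0301 between different numbers). The labels do not say whether same-numbered samples share animals, and the correlations did not all meet the rule for pairs. Replicates were therefore not treated as pairs. Alternatives were a replicate block, leaving out each array, the mean of probes, a filter on dim genes, quantile normalization, an unmoderated variance and a robust variance trend.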

Additional observations from a re-analysis of the deposited data

How the results depend on the processing

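The respiratory chain genes' median stayed between -0.43 and -0.31 over the alternatives, but counts of calls moved. With a replicate block 0 of them fell, and 168 genes in all fell and 412 rose. The unmoderated variance gave 0, with 35 and 145 of all genes, and the robust variance trend 1 (Cox6b2). Quantile normalization gave 3 (Atp5c1, Cox6b2, Sdhd) and removing dim genes 8. Without 1 array 0 to 3 fell, against 111 to 517 of all genes that fell and 319 to 668 that rose, and 1 to 5 separated upward. By complex, calls became 0 in complex I with the block, quantile, unmoderated and trend settings, and 2 without dim genes (0 to 1 without 1 array). Complex II had 0 with the block, unmoderated and trend settings (0 to 1). Complex IV had 0 with the block and unmoderated variance and 3 without dim genes (0 to 2). Complex V had 0 with the block, unmoderated and trend settings and 1 with quantile normalization (0 to 1). Quantile normalization moved the median of complex IV to -0.22, of complex V to -0.32 and of the mitochondrial subunits to 0.31, and left 6 separated in complex I. Without 1 array, 11 to 20 separated downward and 0 to 3 upward in complex I, 2 to 4 downward in complex II, and 6 to 8 downward and 0 to 1 upward in complex IV, whose median ran from -0.49 to -0.24. Assembly factors had 0 calls unmoderated, and 0 to 4 and medians of -0.53 to -0.24 without 1 array. Electron carriers had 0 with the block, unmoderated and trend settings, 1 with quantile normalization, 1 without dim genes (median -0.41) and, without 1 array, 0 in each fit with medians of -0.47 to -0.16. Citric acid cycle genes had 0 with the probe mean and unmoderated, and 0 to 1 without 1 array. Of the 80 genes, 9 turned in direction under quantile normalization, among them Atp5l (0.0107) and Cox6a1 (0.0862), and 19 in at least 1 fit without 1 array, each with a difference of at most 0.63 in size. Of the 19, the genes named by rule were Atp5c1-ps (-0.0598 to 0.151), Cox6a1 (-0.14 to 0.16), Cox7a1 (-0.0861 to 0.927), Cox7a2 (-0.674 to 0.0172), Ndufa4l2 (-0.0355 to 0.0926), Ndufb11 (-0.17 to 1.39) and Sdhc (-0.31 to 0.30). The others were Atp5j, Atp5o, Ndufa10, Ndufa11, Ndufa2, Ndufa8, Ndufb7, Ndufc2, Ndufs1, Ndufs8, Uqcr11 and Uqcrq. The causes were not tested. With the block, the replicate number was a term although it did not meet the rule for pairs; each sample correlated best with its own number, a hint from the data and not the design. Signal near background limits genes with levels under 5.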
